A study of Mus musculus with 8 samples.

Results

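The genes of mouse mitochondrial DNA were followed in αTC1-6 cells. This alpha cell line was grown from a mouse pancreatic tumour that carried a viral large T antigen under the glucagon gene promoter. Members were chosen by symbol alone, as every gene of the count table whose mouse symbol starts with mt-. This gave 37 of 75078 genes, with 13 protein-coding genes, 2 rRNA genes and 22 tRNA genes. Libraries of poly(A)-selected RNA came from 4 samples given a plasmid that overexpresses Yy1 (numbered 45, 46, 47 and 48) and 4 samples given an empty plasmid (numbered 31, 32, 33 and 34). All cells were of the same line, in DMEM labelled 11 mM, and were transfected 24 h after seeding. Harvest time, the promoter on the plasmid and the share of cells that took it up are not stated in the labels used here. Nor do these state whether samples were separate cultures, so each p-value speaks only of spread among these libraries, some or all of which may be technical. A difference in handling between the groups cannot be told apart from the plasmid.

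Yy1 itself, a zinc finger transcription factor encoded in the nucleus, checked the labels: it stood at 5233 ± 464 CPM with the Yy1 plasmid and at 175 ± 5.33 CPM with the empty plasmid (SD, n = 4 each). CPM are counts per 1000000 counts of the library, with totals scaled by TMM, a correction for differences in composition. Estimated counts per library summed to between 29680177 and 33347445 with the Yy1 plasmid and between 20679804 and 30570601 with the empty plasmid, and empty plasmid 33 was the smallest. Of 10 alpha cell markers 9 were detected well enough to be tested, and their summed level was 26160 to 26960 CPM with the Yy1 plasmid and 25930 to 26900 CPM with the empty plasmid. Gc, an alpha cell marker of islets, was at 0, as were the beta cell genes Ins1, Ins2 and Ucn3. Summed markers of acinar and duct cells were 4.604 to 5.67 CPM with the Yy1 plasmid and 3.58 to 4.51 CPM with the empty plasmid, nearly all from Sox9, which was not called. For stroma, endothelium and immune cells the sums were 2.04 to 2.89 CPM and 1.37 to 2.45 CPM. Among these Cd68, a macrophage marker, averaged 0.812 CPM with the Yy1 plasmid and 1.14 CPM with the empty plasmid, without overlap of the groups, and was not called. Ptprc, in the same list, went the other way, also without overlap, at 0.435 CPM with the Yy1 plasmid and 0.106 CPM with the empty plasmid. Only 2 of the 8 genes in this list were detected well enough to be tested, and Ptprc was not among them.

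Mitochondrial DNA is a small circle that encodes subunits of the respiratory chain and ATP synthase, together with the rRNAs and tRNAs that translate them. Both strands are transcribed into long precursors from promoters in the noncoding control region. The genes read as heavy-strand transcripts include nearly all mRNAs and both rRNAs, whereas transcription in the other direction yields mt-Nd6 and a minority of the tRNAs. Excision of the tRNAs releases the mRNAs between them, and the poly(A) polymerase Mtpap then adds short tails. Tails matter for reading these libraries, because only RNA caught by poly(A) selection was counted. In human cells the ND6 mRNA is known to carry no long tail. YY1 is known in mouse skeletal muscle as a partner of the coactivator PGC-1α at nuclear genes for mitochondrial proteins.

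Of the 37 genes, 28 were annotated on the strand that gives heavy-strand transcripts (12 mRNAs, 2 rRNAs and 14 tRNAs) and 9 on the other (mt-Nd6 and 8 tRNAs). The annotation gave a complete stop codon to 10 of the 13 mRNAs. The other 3, mt-Co3, mt-Nd4 and mt-Cytb, ended in a lone T, the first base of a stop codon that tail addition is known to complete. The last 24 bases of 6 mRNAs are shown because they carry these ends and the overlap of the strands. Capitals mark the stop codon or the part of it that the DNA encodes.
mt-Co3: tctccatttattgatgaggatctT
mt-Nd4: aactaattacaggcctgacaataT
mt-Cytb: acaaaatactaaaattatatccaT
mt-Co2: aactgatctgcttcaataattTAA
mt-Nd5: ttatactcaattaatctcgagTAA
mt-Nd6: attatcgagattactcgagatTAA
All sequences are from GENCODE M21 transcripts of the older mouse build GRCm38, written 5′ to 3′ on the transcribed strand. The final 14 bases of mt-Nd5 and mt-Nd6 are the same stretch of DNA read in opposite directions. Overlaps of 43 bases join mt-Atp8 to mt-Atp6, and of 7 bases mt-Nd4l to mt-Nd4, on a single strand in both cases. The light-strand mRNA also differed in composition: mt-Nd6 was 28.1% G and 43.7% T, against 5.88% to 16.1% G and 27.4% to 32.8% T in the 12 heavy-strand mRNAs. Its longest run of A was 3 bases, and the longest runs in the heavy-strand mRNAs were 4 to 8 bases.

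Sequences of the tRNAs that the libraries held in appreciable number are given next, with the anticodon in capitals. mt-Tp, the proline tRNA, is a light-strand product, and mt-Tl1, a leucine tRNA, lies directly after mt-Rnr2 on the heavy-strand transcript.
mt-Tp: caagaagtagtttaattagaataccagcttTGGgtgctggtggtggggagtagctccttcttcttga
mt-Tl1: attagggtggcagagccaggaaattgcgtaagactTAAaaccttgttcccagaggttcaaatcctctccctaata

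Mitochondrial RNA made up 8.18%, 8.55%, 8.23% and 8.75% of all counts in Yy1 plasmid libraries 45 to 48, and 8.04%, 8.81%, 8.24% and 8.89% in empty plasmid libraries 31 to 34. The groups overlapped across nearly their whole ranges. Of the 20 genes with the highest mean count in the table, 10 were mitochondrial, and mt-Co1, the catalytic core of cytochrome c oxidase, ranked 2. mt-Nd6 ranked 4778. Summed over the 37 genes the level was 84454 ± 2916 CPM with the Yy1 plasmid and 85011 ± 4198 CPM with the empty plasmid (SD, n = 4 each).

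**Figure D1:**
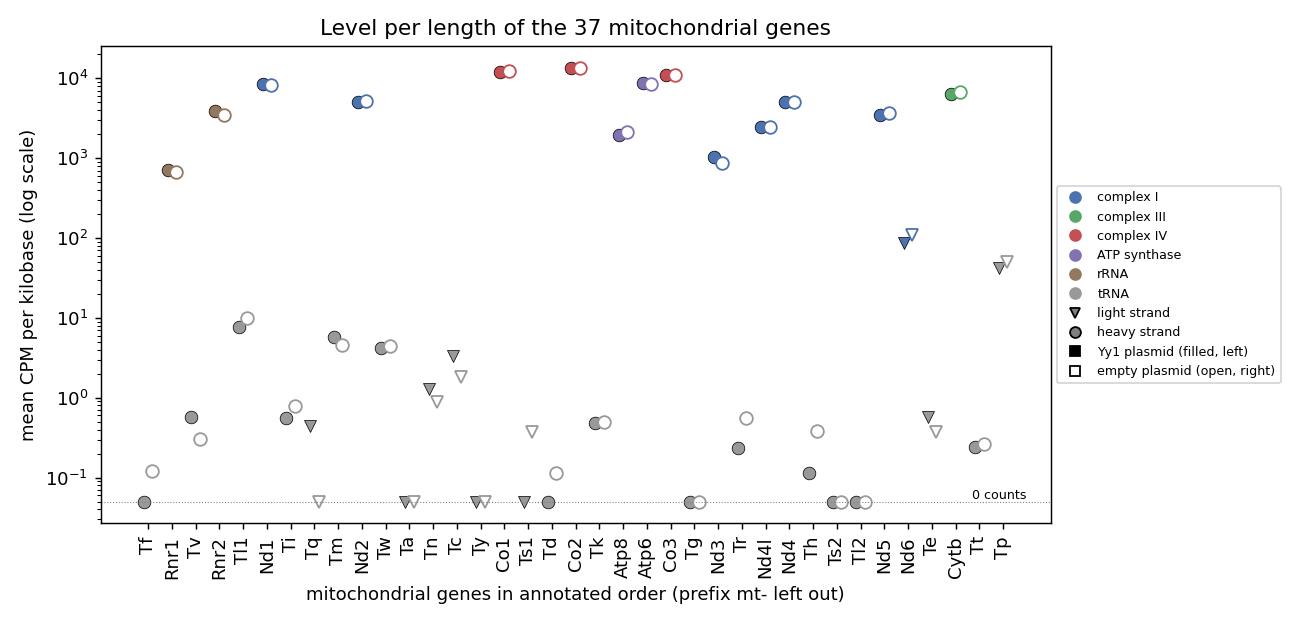
Mean level per length (CPM per kilobase of annotated length, log axis) of each of the 37 genes in annotated order, with the Yy1 plasmid (filled, left) and the empty plasmid (open, right). Colours give the complex or RNA class, circles are heavy-strand and triangles light-strand genes, and genes with 0 counts in a group are drawn on the dotted line. The heavy-strand mRNAs form the top band, mt-Nd6 lies at 86.7 and 108 CPM per kilobase, and the tRNAs lie lower still, mt-Tp highest among them.

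The order of the mRNAs and rRNAs by level per length followed the complexes only at its top. CPM was divided by annotated length, since the lengths that kallisto works with were not used here. The 3 subunits of complex IV (cytochrome c oxidase, which passes electrons to oxygen) led. mt-Co2 averaged 13404 CPM per kilobase with the Yy1 plasmid and 13581 with the empty plasmid, mt-Co1 11899 and 12438, and mt-Co3 10887 and 10944. Their ranges over the 8 libraries overlapped from neighbour to neighbour, but all lay above the next gene. mt-Atp6, the ATP synthase subunit of the proton channel, followed with 8643 and 8590 CPM per kilobase. mt-Nd1, a membrane subunit of complex I, stood at 8457 and 8185, not separated from mt-Atp6. mt-Cytb, the cytochrome of complex III, stood alone at 6415 and 6661 CPM per kilobase.

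Below mt-Cytb came mt-Nd4 and mt-Nd2, proton-pumping subunits of complex I, whose ranges overlapped and whose order differed between the groups. mt-Nd4 averaged 5106 CPM per kilobase with the Yy1 plasmid and 5066 with the empty plasmid, and mt-Nd2 averaged 5020 and 5121. The next pair, mt-Rnr2 (3903 and 3459 CPM per kilobase) and mt-Nd5 (3512 and 3670), also overlapped and changed places between the groups. mt-Nd4l at 2483 and 2437 CPM per kilobase overlapped with mt-Atp8 at 1922 and 2113, and both lay clear of mt-Nd3 at 1035 and 873. mt-Rnr1, the RNA of the small ribosomal subunit, averaged 713 and 668 CPM per kilobase and overlapped with mt-Nd3. Last came mt-Nd6, a complex I subunit, clear of all the others at 86.7 ± 7.81 CPM per kilobase with the Yy1 plasmid and 108 ± 18.8 with the empty plasmid (SD, n = 4 each).

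The median of the 12 heavy-strand mRNAs was 5761 CPM per kilobase with the Yy1 plasmid and 5891 with the empty plasmid, 66.4 and 54.3 times the level of mt-Nd6. Among the heavy-strand mRNAs themselves the highest stood 12.95 times above the lowest with the Yy1 plasmid and 15.6 times with the empty plasmid. The lowest was mt-Nd3, whose counts are uncertain against those of its nuclear copy Gm28438. With that copy added, mt-Atp8 was the lowest and the ratios were 6.97 and 6.43. mt-Nd3, mt-Nd4l and mt-Atp8 were also the shortest of these mRNAs, at 348, 297 and 204 bases. Whether length has a part in their low levels per length was not tested. Levels of mt-Nd6 in poly(A)-selected RNA depend on its tail as well as on its amount, and these were not told apart. The kit keeps strand, but whether the counting used it is not given in the sources used here. Without it, heavy-strand RNA that runs across mt-Nd6 could not be told apart from mt-Nd6 itself.

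The single comparison of the design asks what Yy1 overexpression does to RNA levels in alpha cells, and it was run over the whole table of 15916 genes that passed the filter on low counts. edgeR's quasi-likelihood test called 82 of these, 0.515%, at an adjusted p under 0.05, with 79 higher with the Yy1 plasmid (0.496%) and 3 lower (0.0188%). Of the mitochondrial genes 18 passed the filter, namely the 13 mRNAs, both rRNAs and the tRNAs mt-Tp, mt-Tl1 and mt-Tm. None of the 18 was called by edgeR, and 0 were called by DESeq2 or limma-voom. At an unadjusted p under 0.05 edgeR listed 1 of them, mt-Nd6, against 5.42% of all genes tested, so 1 of 18 is close to the background. The groups overlapped for all 18, whereas 3.95% of all genes tested had groups that did not overlap. Differences were positive for 8 and negative for 10, with a median log2 fold change of -0.01 over the 18 and of -0.0025 over all genes. In these bulk libraries a change in fewer cells and a smaller change in every cell cannot be told apart.

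How narrowly these libraries bounded a change differed between members. For 10 of the 12 heavy-strand mRNAs the 95% interval of the log2 fold change lay within 0.2 of 0 on either side. Taken over those 10, the intervals ran from -0.18 to 0.15, or from 0.885-fold to 1.11-fold. The exceptions, with wider intervals, were mt-Atp8 (SE 0.187) and mt-Nd3 (SE 0.321), the least abundant heavy-strand mRNAs by count. mt-Nd6 had fewer counts than either and a smaller SE, 0.129. In both exceptions empty plasmid 33 stood apart, at 593 CPM for mt-Atp8 and 140.4 CPM for mt-Nd3. The cause of the wider intervals was not tested.

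**Figure D2:**
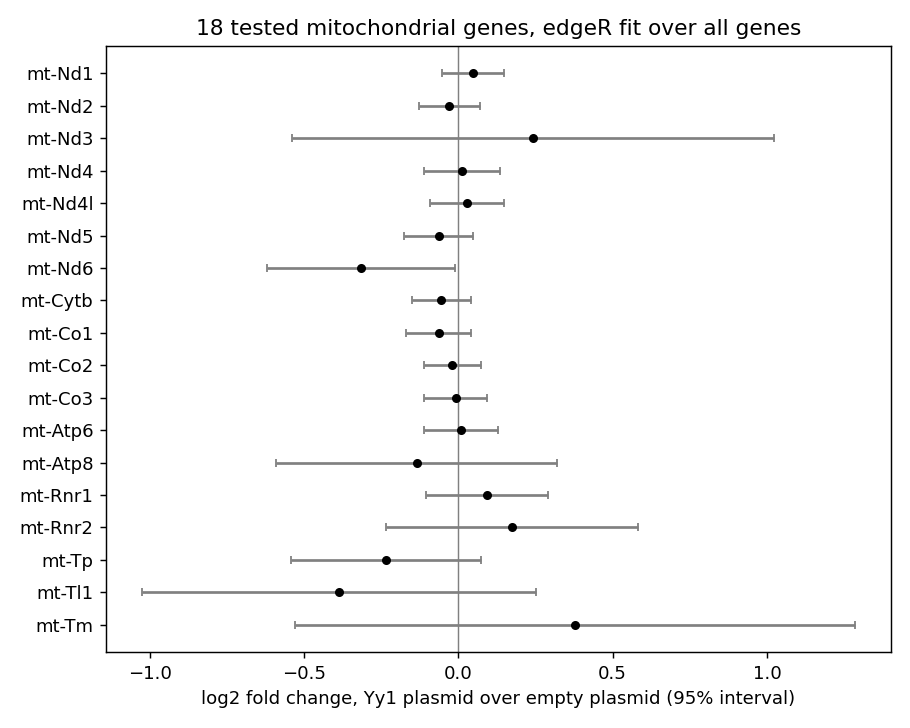
Log2 fold change (Yy1 plasmid over empty plasmid) of the 18 tested mitochondrial genes, with 95% intervals from the edgeR fit over all genes. Narrow intervals around 0 belong to the abundant heavy-strand mRNAs, the interval of mt-Nd6 ends at -0.01, and those of mt-Nd3 and the tRNAs mt-Tl1 and mt-Tm are wide.

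The complex IV mRNAs differed little between the groups. mt-Co1 read 18392, 18430, 17775 and 18941 CPM in Yy1 plasmid libraries 45 to 48, and 17925, 20482, 18306 and 20155 CPM in empty plasmid libraries 31 to 34. The highest values were in empty plasmid 32 and 34, and the Yy1 plasmid range lay inside that of the empty plasmid except at its lower end. The log2 fold change was -0.06 (SE 0.0508, 95% interval -0.17 to 0.04, edgeR adjusted p = 0.98). mt-Co2, which carries the copper site that receives electrons, read 9140.0, 9299, 8862 and 9372 CPM with the Yy1 plasmid, against 8771, 9496, 9455 and 9437 CPM with the empty plasmid. Empty plasmid 31 held the lowest value of the 8, and the other 3 empty plasmid libraries the highest. mt-Co3 ranged from 8334 to 8826 CPM with the Yy1 plasmid and from 7829 to 9102 CPM with the empty plasmid, and its 95% interval was -0.11 to 0.09. Summed over the complex the level was 36088 ± 899.5 CPM with the Yy1 plasmid and 37087 ± 1979 CPM with the empty plasmid (SD, n = 4 each).

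Complex I, which takes electrons from NADH, has 7 mitochondrial genes, of which 6 are heavy-strand mRNAs. mt-Nd1 read 7808, 8222, 7690.3 and 8651 CPM with the Yy1 plasmid, against 7626, 7953, 7530.4 and 8222 CPM with the empty plasmid. Yy1 plasmid 48 was highest, Yy1 plasmid 46 was level with the highest empty plasmid library, and the rest of the Yy1 plasmid group lay within the empty plasmid range. The log2 fold change of mt-Nd1 was 0.05 (SE 0.0482, 95% interval -0.05 to 0.15). mt-Nd5, a large proton-pumping subunit whose gene overlaps mt-Nd6, read 6068, 6332, 6463 and 6758 CPM with the Yy1 plasmid, against 5956, 7026, 6605 and 7187 CPM with the empty plasmid. Empty plasmid 31 was lowest, and empty plasmid 34 highest. Its log2 fold change was -0.06 (SE 0.0541, 95% interval -0.18 to 0.05).

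mt-Nd2 ranged from 4958 to 5382 CPM with the Yy1 plasmid and from 4900.5 to 5547 CPM with the empty plasmid. For mt-Nd4 the ranges were 6593 to 7441 CPM and 6338 to 7633 CPM. For mt-Nd4l, which shares its RNA with mt-Nd4, they were 657 to 793 CPM and 652 to 758 CPM. In all 3 the groups overlapped, and the log2 fold changes of -0.03, 0.01 and 0.03 had 95% intervals that spanned 0. mt-Nd4 gave 2.06 ± 0.119 counts per base for each of mt-Nd4l with the Yy1 plasmid and 2.08 ± 0.172 with the empty plasmid (SD, n = 4 each). Summed complex I levels were 27888 ± 1172 CPM with the Yy1 plasmid and 27907 ± 1827 CPM with the empty plasmid (SD, n = 4 each).

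mt-Cytb, the sole mitochondrial gene of complex III, read 7211, 7415, 7243 and 7487 CPM with the Yy1 plasmid, against 7067, 7836, 7516 and 8062 CPM with the empty plasmid. Of the empty plasmid libraries 3 exceeded every Yy1 plasmid library, and empty plasmid 31 lay below them all. Its log2 fold change was -0.05 (SE 0.0467, 95% interval -0.15 to 0.04). As a share of all mitochondrial counts mt-Cytb took 8.82%, 8.68%, 8.77% and 8.496% with the Yy1 plasmid, against 8.86%, 8.91%, 9.00% and 9.08% with the empty plasmid. In this share the groups did not overlap, alone among the 10 shares of complexes and RNA classes compared. As a share of mRNA counts alone they did overlap, at 9.32% to 9.52% with the Yy1 plasmid and 9.45% to 9.94% with the empty plasmid. ATP synthase has mt-Atp6 and mt-Atp8, read from a shared RNA. mt-Atp6 read 5849, 5871, 5819.9 and 6005 CPM with the Yy1 plasmid, against 5515, 6564, 5183 and 6137 CPM with the empty plasmid. The Yy1 plasmid libraries lay close together, with a coefficient of variation of 1.39%, inside the wider empty plasmid range. For mt-Atp6 the log2 fold change was 0.01 (SE 0.0581, 95% interval -0.11 to 0.13).

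mt-Atp8, a small membrane subunit, read 346, 429, 428 and 366 CPM with the Yy1 plasmid, against 369, 358, 593 and 405 CPM with the empty plasmid. Empty plasmid 33 stood above all others, and the remaining 7 libraries lay between 346 and 429 CPM. The log2 fold change of -0.14 (SE 0.187, 95% interval -0.59 to 0.32) became 0.06 without empty plasmid 33. That library also gave 2.62 counts per base of mt-Atp6 for each of mt-Atp8, while the others lay between 4.07 and 5.07 with the Yy1 plasmid and between 4.48 and 5.50 with the empty plasmid.

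**Figure D3:**
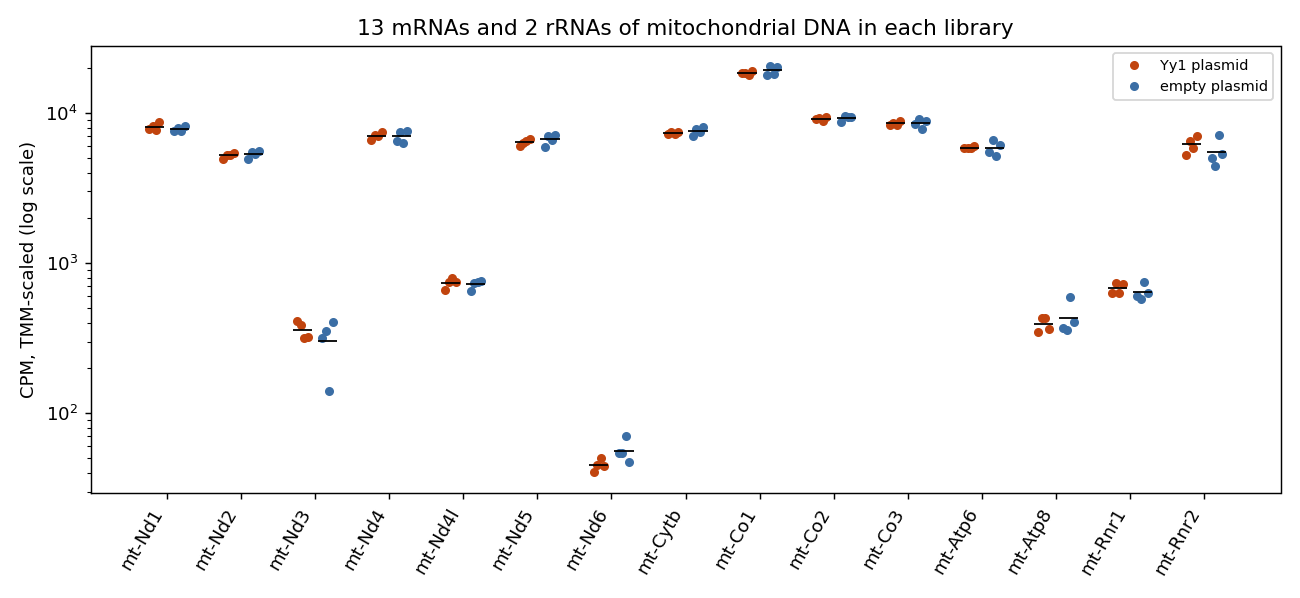
CPM (log axis) of the 13 mRNAs and 2 rRNAs in each library, with the Yy1 plasmid at left and the empty plasmid at right of each pair, and the group mean as a line. Points of the groups overlap for every gene, and the isolated points of mt-Nd3 (140.4 CPM), mt-Atp8 (593 CPM) and mt-Nd6 (70.003 CPM) are all empty plasmid 33.

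mt-Nd6, the light-strand mRNA, had the smallest unadjusted p among the members and was lower on average with the Yy1 plasmid. It read 40.4, 44.9, 50.3 and 44.5 CPM in Yy1 plasmid libraries 45 to 48, against 54.3, 53.9, 70.003 and 47.0 CPM in empty plasmid libraries 31 to 34. Of the empty plasmid libraries 3 lay above every Yy1 plasmid library, while empty plasmid 34 lay below Yy1 plasmid 47, so the groups overlapped. The values rest on 1317, 1334, 1671 and 1419 counts with the Yy1 plasmid and 1674, 1432, 1428 and 1312 counts with the empty plasmid. In the fit, its log2 fold change was -0.32 (SE 0.129, 95% interval -0.62 to -0.01), with an edgeR unadjusted p of 0.0441 and an adjusted p of 0.906. A two-sided exact permutation test of this gene over 70 arrangements of the libraries gave p = 0.0571, and the smallest p it can give is 0.0286.

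The adjusted p of mt-Nd6 ranged from 0.135 to 0.9999 over the alternatives, so no setting called it. Its unadjusted p varied with the setting, at 0.0220 in DESeq2, 0.00497 in limma-voom and 0.000788 in edgeR with no filter. In edgeR it was 0.0578 after thinning and 0.0977 without Yy1 plasmid 45. Without empty plasmid 33 the log2 fold change was -0.20 (edgeR adjusted p = 0.451), and without empty plasmid 34 it was -0.39 (adjusted p = 0.402). Set against the strand from which all other mRNAs come, mt-Nd6 gave 0.533, 0.575, 0.662 and 0.554 counts per 1000 heavy-strand mRNA counts with the Yy1 plasmid, and 0.734, 0.650, 0.926 and 0.567 with the empty plasmid. The same libraries were high and low as for CPM, and the groups again overlapped. Means of this ratio were 0.581 ± 0.0564 with the Yy1 plasmid and 0.719 ± 0.154 with the empty plasmid (SD, n = 4 each). Against mt-Nd5 alone, its overlapping neighbour, mt-Nd6 gave 7.03 ± 0.549 and 8.48 ± 1.76 counts per 1000. The heavy-strand mRNAs themselves summed to 77549 ± 2123 CPM with the Yy1 plasmid and 78839 ± 4682 CPM with the empty plasmid (SD, n = 4 each).

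**Figure D4:**
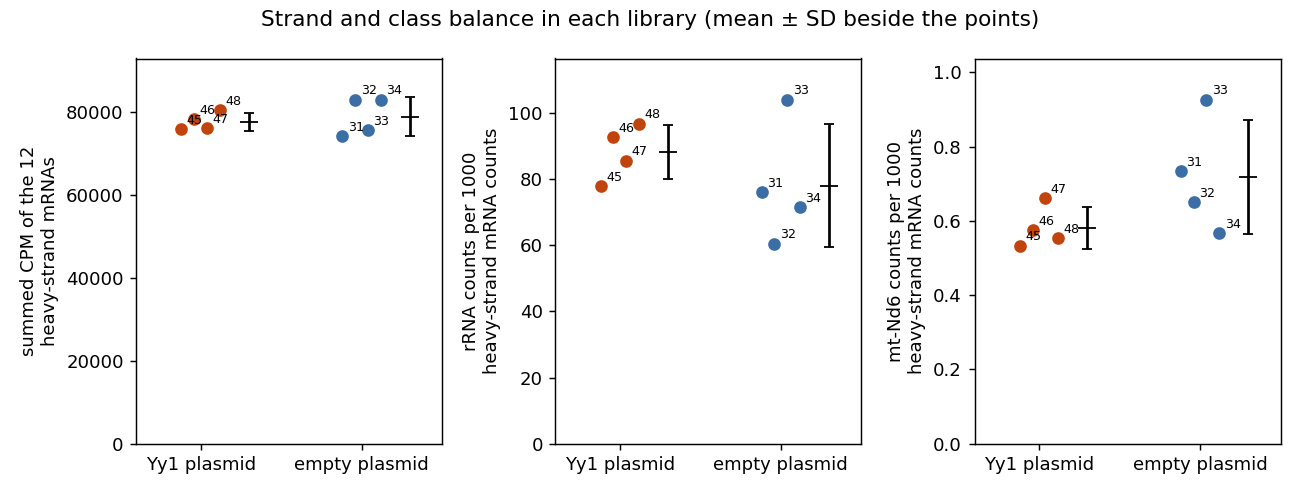
Summed CPM of the 12 heavy-strand mRNAs, rRNA counts per 1000 heavy-strand mRNA counts and mt-Nd6 counts per 1000 heavy-strand mRNA counts in each numbered library, with the mean ± SD beside the 4 points of each plasmid. Groups overlap in all 3 panels, and empty plasmid 33 is the highest point for both ratios, at 104 and 0.926.

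The rRNAs, read first along the heavy-strand transcript, were the other class in which libraries of a group lay far apart. mt-Rnr2, the RNA of the large ribosomal subunit, read 5270.0, 6515, 5871 and 7043 CPM with the Yy1 plasmid, against 5032, 4439, 7119 and 5302 CPM with the empty plasmid. Empty plasmid 33 was the highest of all 8 libraries, and the other 3 empty plasmid libraries lay near or below the lowest Yy1 plasmid library. The log2 fold change was 0.17 (SE 0.169, 95% interval -0.24 to 0.58, edgeR adjusted p = 0.992). Without empty plasmid 33 it was 0.33 (edgeR unadjusted p = 0.0391, adjusted p = 0.696), and without empty plasmid 32 it was 0.09.

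mt-Rnr1 read 634, 732, 630.4 and 726 CPM with the Yy1 plasmid, against 608, 574, 743 and 629 CPM with the empty plasmid. Empty plasmid 33 was again the highest. Its log2 fold change was 0.09 (SE 0.0866, 95% interval -0.10 to 0.29). Without empty plasmid 33 it was 0.17 (edgeR unadjusted p = 0.0131, adjusted p = 0.495), and without empty plasmid 32 it was 0.04. Together the rRNAs gave 77.9, 92.8, 85.6 and 96.7 counts per 1000 heavy-strand mRNA counts with the Yy1 plasmid, and 76.1, 60.5, 104 and 71.6 with the empty plasmid. Of the mitochondrial counts, rRNA took 8.10 ± 0.702% with the Yy1 plasmid and 7.22 ± 1.58% with the empty plasmid (SD, n = 4 each). Per base, mt-Rnr2 exceeded mt-Rnr1 by 5.47 ± 0.357 times with the Yy1 plasmid and 5.14 ± 0.467 times with the empty plasmid. Both rRNAs are transcribed from the same promoter region, and their poly(A)-selected levels need not follow their amounts in the ribosome.

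mt-Nd3, a small complex I subunit, needs its nuclear copy beside it. A copy of mitochondrial DNA in the nucleus, the unprocessed pseudogene Gm28438 on chromosome 1, matched mt-Nd3 at 99.71% over 345 bases, with a single difference. The first 60 bases of both are shown because they hold that difference, T3C, counted from 1 at the annotated start with the base of mt-Nd3 first, in capitals.
mt-Nd3: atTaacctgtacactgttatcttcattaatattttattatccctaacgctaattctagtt
Gm28438: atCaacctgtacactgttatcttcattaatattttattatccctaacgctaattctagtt
Reads from the matched stretch that do not reach this base fit both genes, so the counts given to each are uncertain and rest on how the authors' program divided them.

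mt-Nd3 read 413, 386, 318 and 324 CPM with the Yy1 plasmid, against 317, 353, 140.4 and 406 CPM with the empty plasmid. Empty plasmid 33 was far below the rest, and the other 7 libraries overlapped. Gm28438 was credited with 631, 744, 755 and 805 CPM with the Yy1 plasmid, against 715, 661, 655 and 680.4 CPM with the empty plasmid. The copy was thus credited with more counts than mt-Nd3 in every library. Whether those counts came from the nuclear copy or from mitochondrial DNA was not tested. The share credited to mt-Nd3 was 33.0 ± 4.98% of the pair's counts with the Yy1 plasmid and 30.1 ± 8.76% with the empty plasmid (SD, n = 4 each), and was lowest, at 17.7%, in empty plasmid 33.

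**Figure D5:**
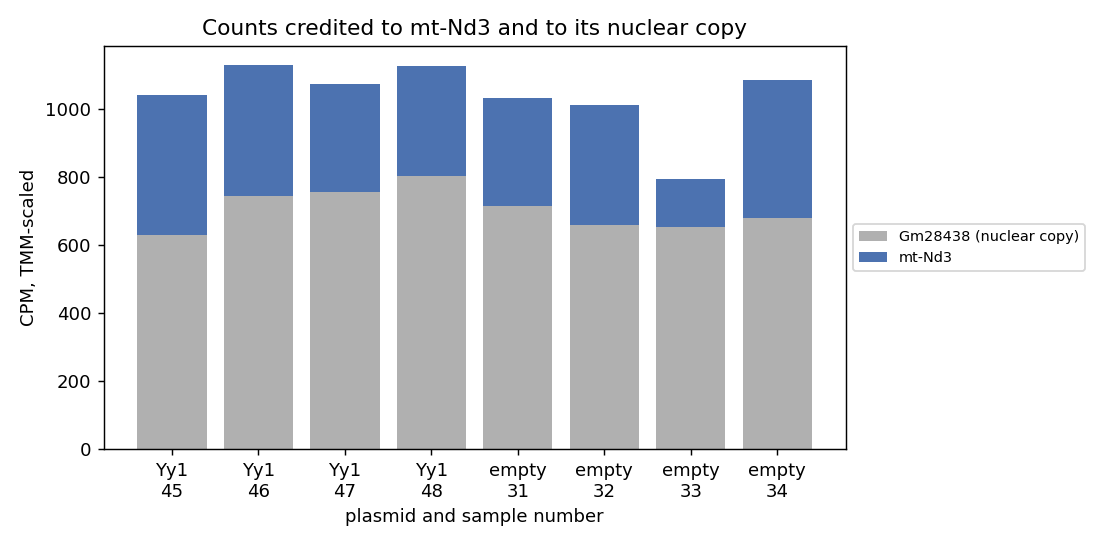
CPM credited to mt-Nd3 (upper, blue) and to its nuclear copy Gm28438 (lower, grey) in each library, Yy1 plasmid first. Stacked bars are 1044 to 1130.1 CPM high with the Yy1 plasmid and 795 to 1087 CPM with the empty plasmid, and empty plasmid 33 has both the lowest bar and the smallest mt-Nd3 segment.

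Added together, mt-Nd3 and Gm28438 read 1044, 1130.1, 1074 and 1129 CPM with the Yy1 plasmid, against 1032, 1013, 795 and 1087 CPM with the empty plasmid. Empty plasmid 33 was lowest, and empty plasmid 34 lay within the Yy1 plasmid range. The log2 fold change was 0.24 for mt-Nd3 alone (SE 0.321, 95% interval -0.54 to 1.02) and 0.16 for mt-Nd3 with its nuclear copies added (SE 0.0870, 95% interval -0.04 to 0.35, edgeR adjusted p = 0.947). Without empty plasmid 33 the value of mt-Nd3 alone was 0.01. With the copy added, mt-Nd3 had 3144 ± 123 CPM per kilobase with the Yy1 plasmid and 2821 ± 368 with the empty plasmid (SD, n = 4 each), which places it between mt-Nd5 and mt-Nd4l.

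Near-identical nuclear copies were found for more of the members. By sequence, 17 nuclear genes matched 11 of the 37 members at 90% identity or more over at least 100 bases, and 6 of the 17 had a mean count of at least 1. The tRNAs, at 59 to 75 bases, were too short to meet this limit, so the search could not find copies of them. Gm28661 was identical to mt-Co2 over 681 bases. It was credited with 8056 counts in empty plasmid 33, with 44.9 in empty plasmid 32 and with at most 2.06 in each of the other 6 libraries. Gm28439, identical to mt-Nd4 over the 876 bases matched, was credited with 535 counts in empty plasmid 33 and 98.2 in Yy1 plasmid 47. Its count was at most 2.66 in the remaining libraries. Adding the copies back left all tested members uncalled.

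The tRNAs were nearly absent from these libraries. Over all 22, the libraries with the Yy1 plasmid held 589 counts and those with the empty plasmid 544. In every library mt-Ta, mt-Ty, mt-Tg, mt-Ts2 and mt-Tl2, for alanine, tyrosine, glycine, a serine and a leucine tRNA, had 0 counts, which allows up to 3 counts, or 0.09 to 0.145 CPM. Another 5 were above 0 in all 8 libraries, namely mt-Tp, mt-Tl1, mt-Tm, mt-Tw and mt-Tc. The other 12 were above 0 in some libraries and at 0 in others. This limit covers counting error only. tRNAs are short and heavily structured, and mature ones are known to end in CCA rather than in a poly(A) tail.

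mt-Tp held 63.1% of all tRNA counts. It had 101, 76, 98 and 87 counts with the Yy1 plasmid, against 116, 69, 74 and 94 counts with the empty plasmid. Scaled for depth this was 3.10, 2.56, 2.95 and 2.73 CPM with the Yy1 plasmid, against 3.77, 2.60, 3.63 and 3.36 CPM with the empty plasmid. Of the empty plasmid libraries 3 were above every Yy1 plasmid library, and empty plasmid 32 was near the lowest. For mt-Tp the log2 fold change was -0.23 (SE 0.148, 95% interval -0.54 to 0.07, edgeR adjusted p = 0.953). mt-Tp and mt-Nd6 are products of the same strand. Per length mt-Tp stood at 42.3 ± 3.55 CPM per kilobase with the Yy1 plasmid and 49.8 ± 7.78 with the empty plasmid, below mt-Nd6 in both.

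mt-Tl1 had 73 counts in all with the Yy1 plasmid and 79 with the empty plasmid, and its log2 fold change was -0.39 (SE 0.308, 95% interval -1.02 to 0.25). mt-Tm, for methionine, had 51 and 32 counts and a log2 fold change of 0.38 (SE 0.437, 95% interval -0.53 to 1.29), which was 0.04 without empty plasmid 31 and 0.10 without Yy1 plasmid 47. Neither was called, and the wide intervals leave the size and direction of any change unsettled at this depth. mt-Tw, for tryptophan, had 36 counts with the Yy1 plasmid and 33 with the empty plasmid. mt-Tc, for cysteine, had 27 and 12 counts, of which 18 were in Yy1 plasmid 46. All tRNAs together summed to 4.61 ± 0.460 CPM with the Yy1 plasmid and 5.14 ± 0.771 CPM with the empty plasmid (SD, n = 4 each), and 0.00548% and 0.00607% of the mitochondrial counts.

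Spread among the libraries of a group was described over the 15 mRNAs and rRNAs, with no test. Coefficients of variation had a median of 5.02% with the Yy1 plasmid and 8.21% with the empty plasmid, and the highest, both for mt-Nd3, were 12.9% and 37.9%. With the counts of Gm28438 added, those of mt-Nd3 were 3.90% with the Yy1 plasmid and 13.1% with the empty plasmid. Yy1 plasmid 48 was the highest of its group for 10 of the 15 and Yy1 plasmid 45 the lowest for 9. In the empty plasmid group, library 33 was highest for mt-Nd6, mt-Atp8 and both rRNAs and lowest for mt-Nd1, mt-Nd3, mt-Nd4, mt-Co3 and mt-Atp6. Whether its lower depth has a part in this was not tested. Thinning all libraries to the smallest left no member called, as in the main fit, so that outcome cannot decide the question.

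The proteins that make, cut, tail and translate mitochondrial RNA are encoded in the nucleus, and 81 symbols of such genes were listed by role. Fastkd4 and Tbrg4 in the list are the same gene, and Mtrfr was not found by its symbol. This left 79 genes, and all 79 were tested. edgeR called 0 of the 79, and DESeq2 and limma-voom also called 0, against 0.515% of all genes tested by edgeR. At an unadjusted p under 0.05 there was 1 of the 79, against 5.42% of all genes tested. This was Lig3, the DNA ligase on which mitochondria depend. It averaged 25.1 ± 1.10 CPM with the Yy1 plasmid and 22.9 ± 1.81 CPM with the empty plasmid (SD, n = 4 each), with overlapping groups. Its difference was 0.14 on the log2 scale (SE 0.0632, edgeR adjusted p = 0.895). Differences were positive for 26 and negative for 53, with a median log2 fold change of -0.03. Over all genes tested they were positive for 7730 and negative for 8186, with a median of -0.0025.

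Of 10 genes for transcription, 4 were positive and 6 negative. Those with the smallest p were the terminator family genes Mterf4 (log2 fold change -0.11), Mterf1b (-0.23) and Mterf2 (-0.12). Of 14 genes for replication and packaging of mitochondrial DNA, 6 were positive and 8 negative, and after Lig3 came Polg2, the accessory subunit of the polymerase (-0.22), and the nuclease Mgme1 (-0.07). For release of the tRNAs and RNA processing the split was 6 and 8 of 14, with Hsd17b10, a subunit of mitochondrial RNase P (0.11), Fastkd1 (0.10) and the CCA-adding enzyme Trnt1 (-0.06).

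Of 10 genes for mRNA stability, tails and decay, 4 were positive and 6 negative. Lrpprc, which stabilises heavy-strand mRNAs and promotes their polyadenylation, averaged 309 ± 10.02 CPM with the Yy1 plasmid and 299.8 ± 13.3 CPM with the empty plasmid (SD, n = 4 each), a log2 fold change of 0.04. Tent4b had a log2 fold change of -0.05 and Pde12, which removes poly(A) from mitochondrial RNA, of -0.07. Mtpap, chosen after its values were seen because it adds the tails, averaged 37.3 ± 1.08 CPM with the Yy1 plasmid and 37.5 ± 0.807 CPM with the empty plasmid (SD, n = 4 each). Of 19 genes for modification of tRNA and rRNA, 2 were positive and 17 negative, with a median log2 fold change of -0.03. The 3 with the smallest p were Mrm1, a methyltransferase of the large rRNA (-0.11), Trmu, which thiolates tRNAs (-0.11), and Mettl17 (-0.13). For translation the split was 4 and 8 of 12, with Mtres1 (-0.11), the elongation factor Gfm1 (0.06) and the release factor gene Mtrf1l (-0.07). None of the genes named from these lists was called.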

How the data were processed

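Expected counts, estimated by the authors for each gene and not scaled for depth, were deposited for 75078 genes in 8 libraries. Poly(A) selection followed Trizol extraction with columns, and libraries were directional, per the labels' protocols. Per the submitters' processing notes, fastp, kallisto and the build GRCm39 were used. Versions, the annotation release, the way transcripts were summed to genes and the use of strand are not given in the sources used here. Symbols for 48278 of the IDs, strands, lengths and sequences came from GENCODE M21, an annotation of GRCm38, so no coordinates are given. Columns were tied to samples by the labels' descriptions.

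Counts were rounded to whole numbers. Genes passed filterByExpr at a minimum count of 10 and a total of at least 15, and TMM gave the scaling. The two-sided test was edgeR 4.0.16 (robust glmQLFit, then glmQLFTest) in R 4.3.3, with Benjamini-Hochberg adjustment over 15916 genes and a threshold of 0.05. Standard errors were the absolute log2 fold change over the square root of F, and 95% intervals used the degrees of freedom of the fit. The steps were tested on simulated data. CPM used TMM-scaled totals. Sums, shares and ratios over members were given no test. Exact permutation tests used scipy 1.17.1 on log2(CPM + 1), and nuclear copies were sought with BLAST 2.17.0 among annotated transcripts.

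Alternative scalings were upper-quartile, RLE, none beyond library size, and library sizes without the members and Yy1. Further alternatives were a filter of 1 CPM in 4 libraries, no filter, DESeq2 1.42.0, limma-voom (limma 3.58.1), thinning to the smallest library, adding nuclear copies to their members, and leaving out each library. All mRNAs and rRNAs are named. Of the tRNAs, those detected in all libraries are named by rule, and the 5 at 0 were named after their values were seen, and of each nuclear list the 3 genes with the smallest p. Members, lists and tests were chosen with earlier results of these data known. Replicate pairs differed by more than counting noise (chi-square per degree of freedom 2.92 to 13.9), so no library was treated as a second deposit of another. This does not show that the libraries are independent samples. The highest values, 9.63, 11.5 and 13.9, were those of the pairs with empty plasmid 33. All other pairs lay between 2.92 and 6.48.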

Additional observations from a re-analysis of the deposited data

Results flagged for a closer look

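Of 62 groups of 4 values examined, 5 held a library that stood apart from the other 3 of its group by Dixon's criterion, which chance meets in about 1 of 20 groups. mt-Co2 in empty plasmid 31 read 8771 CPM, against 9437 to 9496 CPM in the other 3 empty plasmid libraries. With the counts of the identical copy Gm28661 added, empty plasmid 33 read 9850.1 CPM, and empty plasmid 31 no longer met the criterion (gap over range 0.617). The summed tRNA level of empty plasmid 32 was 3.99 CPM, with 5.39 to 5.65 CPM in the other empty plasmid libraries. mt-Nd4 gave 1.82 counts per base for each of mt-Nd4l in empty plasmid 33, and 2.14 to 2.18 in the others.

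The other 2 concern Gm28661, the nuclear gene identical in sequence to mt-Co2 over 681 bases. Its share of the counts credited to the pair was 0.000581% in Yy1 plasmid 46, with at most 3.35e-06% in the other Yy1 plasmid libraries. That flag rests on an estimated 1.60 counts of Gm28661, against at most 0.00986 in the other Yy1 plasmid libraries. In empty plasmid 33 its share was 4.01%, with 0.000404% to 0.0178% in the other empty plasmid libraries.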

How the results depend on the processing

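No paired analysis was possible because the groups share no replicate numbers. No member and no gene of the nuclear lists was called under any alternative run, including each library left out (0 in every case). Of all genes, 82 were called, against 54 with the 1 CPM filter, 174 with no filter, and 65 to 87 with 1 library left out. Members' log2 fold changes kept their sign in all 177 results from other settings and in 131 results from leaving out a library. With a library left out another 13 changed sign, in mt-Atp8 (range -0.215 to 0.0563), mt-Atp6 (-0.0449 to 0.0684), mt-Co3 (-0.0491 to 0.0215), mt-Nd4l (-0.0226 to 0.0769) and mt-Nd4 (-0.0323 to 0.0567), none of them called. Values could not be had for mt-Tl1 and mt-Tm under the 1 CPM filter and for mt-Tm after thinning, since they did not pass. For mt-Atp8 the library was empty plasmid 33. For the others the cause was not tested. Over the same omissions the log2 ratio of group means ran from -0.05 to 0.00 for summed heavy-strand mRNAs, from 0.08 to 0.31 for rRNA, from -0.40 to -0.20 for mt-Nd6, and from -0.41 to -0.16 for mt-Nd6 over heavy-strand mRNA. The filter on low counts removed 19 tRNAs. With no filter 17 of the 22 were tested, and 2 of the 32 members tested had an unadjusted p under 0.05. With 1 library left out that number was 0 to 3, and mt-Tm ranged from 0.04 to 0.60.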
